A study of Homo sapiens with 4 samples.

Results

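The long arm of chromosome 16, 16q, was described by its peaks of 5-methylcytosine in C4-2B cells, an established human prostate cancer line that descends from LNCaP cells and grows without androgen. The arm was taken as every deposited peak on chromosome 16 that starts above 46.4 Mb of hg19. It was chosen on the ratio of pileup between the genotypes in these same libraries, so that ratio and every value of the same contrast are given as descriptions, with no test. The arm held 6718 of the 296521 peaks of the knockout list and 5939 of the 261657 peaks of the control list. A total of 4590 regions formed one-to-one pairs, of 206556 in the whole series. Both peaks of a pair overlap each other and nothing else in the opposite list. The knockout cells carried a guide RNA against PKCλ/ι, a kinase of the atypical protein kinase C group whose gene is PRKCI, and the control cells a control guide. Cells of both genotypes received no treatment and were collected at about 70% confluency, 48 h from plating. Each genotype had 1 library from methylated DNA immunoprecipitation (MeDIP) and 1 input library, so no difference has a replicate check. Whether the knockout cells were a single clone is not given in the sources used here.

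In MeDIP an antibody against 5-methylcytosine pulls down fragments with methylated CpG sites, so a peak needs both CpG sites and their methylation. The long arm of chromosome 16 is often lost in prostate, breast and liver cancers. It carries the E-cadherin gene CDH1 and its relative CDH13, and the metallothionein cluster. Metallothioneins are small cysteine-rich proteins that bind zinc, copper and cadmium, and their genes are induced by metals through the factor MTF1. CDH13 encodes T-cadherin, a cadherin held to the membrane by a lipid anchor. Methylation of the CDH13 promoter and of several metallothionein promoters has been described in many tumour types.

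The RefSeq gene table (GRCh38.p14) places 11 protein-coding metallothionein genes next to each other on chromosome 16 between BBS2 and NUP93, in the order MT4, MT3, MT2A, MT1E, MT1M, MT1A, MT1B, MT1F, MT1G, MT1H and MT1X. The RefSeq promoter table held 5 of the 11, each as 250 bases before and 50 after the gene's start. The 4 printed here show how far neighbouring genes of 1 family differ in CpG sites, which the antibody detects only where they are methylated. CpG sites are in capitals, and all 4 sequences are on the plus strand of GRCh38.p14.
MT2A, chr16:56608334-56608633: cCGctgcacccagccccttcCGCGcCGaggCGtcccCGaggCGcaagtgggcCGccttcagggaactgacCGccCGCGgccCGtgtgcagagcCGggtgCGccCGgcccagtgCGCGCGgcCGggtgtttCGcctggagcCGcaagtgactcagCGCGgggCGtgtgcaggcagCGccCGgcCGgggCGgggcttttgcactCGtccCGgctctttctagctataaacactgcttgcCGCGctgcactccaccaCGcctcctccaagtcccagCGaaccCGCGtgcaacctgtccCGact
MT1B, chr16:56651636-56651935: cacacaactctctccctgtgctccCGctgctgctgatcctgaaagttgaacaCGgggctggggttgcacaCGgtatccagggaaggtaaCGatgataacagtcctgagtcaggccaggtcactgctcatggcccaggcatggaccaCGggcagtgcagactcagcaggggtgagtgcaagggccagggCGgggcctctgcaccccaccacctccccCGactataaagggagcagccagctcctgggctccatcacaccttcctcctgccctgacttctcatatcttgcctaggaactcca
MT1H, chr16:56669564-56669863: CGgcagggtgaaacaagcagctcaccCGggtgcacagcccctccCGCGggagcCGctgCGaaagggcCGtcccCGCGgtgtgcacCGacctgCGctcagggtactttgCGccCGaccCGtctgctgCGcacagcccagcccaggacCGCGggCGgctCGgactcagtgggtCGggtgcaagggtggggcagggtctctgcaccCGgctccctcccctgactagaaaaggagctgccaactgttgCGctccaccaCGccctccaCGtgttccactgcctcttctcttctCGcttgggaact
MT1X, chr16:56682220-56682519: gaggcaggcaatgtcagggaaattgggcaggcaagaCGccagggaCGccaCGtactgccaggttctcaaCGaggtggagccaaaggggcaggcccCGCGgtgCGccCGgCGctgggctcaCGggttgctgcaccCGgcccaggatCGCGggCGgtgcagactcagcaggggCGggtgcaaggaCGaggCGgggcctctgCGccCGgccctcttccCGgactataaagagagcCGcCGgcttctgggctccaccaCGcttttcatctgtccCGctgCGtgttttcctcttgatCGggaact
The 300 bases held 37 CpG sites in MT2A, 26 in MT1X, 25 in MT1H and 7 in MT1B, against a median of 14 over the 35116 promoters of the table. MT4, whose promoter is not printed, held 8. As many CpG sites as in MT2A were found in 11.3% of promoters, and as many as in MT1B in 63.2%. The core of the metal response element was searched as TGCACNC and TGCGCNC on both strands. The second form contains a CpG site, so these matches and the CpG count overlap. The 2 forms together occurred 8 times in MT2A and in MT1H, 4 times in MT1X and 3 times in MT1B. At least 1 occurrence was found in 29.6% of all promoters and 8 or more in 0.0199%. The peaks are placed on hg19 and these promoters on another build, so which peak covers which promoter was not determined.

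The knockout immunoprecipitate was the deeper one. The caller's lowest local background, which in its model is the genome-wide mean pileup and is called the library mean here, was 4.42 fragments in the knockout and 2.92 in the control. Their ratio was 1.51. Pileups, the number of overlapping fragments at a peak's summit, are therefore given as multiples of the library mean, and log2 ratios are knockout over control after this scaling. A change common to the whole genome cannot be seen on this scale. Strong peaks are those with a −log10 q of at least 10. Intervals are at the 95% level. For counts and shares they cover counting error only. For medians they show how closely the pairs inside 1 library per genotype fix the median. They give neither the spread of single pairs nor replicate error. No peak lay close to the limit at 46.4 Mb. The last peaks before it ended at 35.0 Mb, with pileups of 31 in the knockout and 25 in the control. The first peaks after it started at 46.471 Mb with a pileup of 32 in the knockout and at 46.460 Mb with 22 in the control.

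Within each list, 16q was less densely methylated than the short arm, 16p, and its peaks were of similar size. It held 153 peaks per Mb in the knockout and 136 in the control. On 16p there were 189 per Mb in the knockout and 176 in the control. Peaks covered 10.3% of the arm in the knockout and 8.67% in the control, against 14.0% and 12.5% of 16p. The median peak of 16q was 502 bp long in the knockout (quartiles 382 and 762) and 489 bp in the control (quartiles 372 and 718). On 16p the medians were 526 bp and 512 bp. Median pileup on 16q was 39 in the knockout, 8.82 times the library mean, and 24 in the control, 8.21 times the library mean. On 16p the order was nearly level, with 9.27 times in the knockout and 9.24 times in the control, and over all peaks it was the other way round, with 8.14 times in the knockout and 8.55 times in the control.

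Methylated regions were gathered in a few dense stretches of the arm (plot of peaks per Mb by bin). The densest bins of 2 Mb were 84 to 86 Mb, with 380 peaks per Mb in the knockout and 371 in the control, and 88 to 90 Mb, with 371 and 388. Next came 68 to 70 Mb with 350 and 292. Between 60 and 66 Mb the 3 bins held 6, 4 and 13 knockout peaks and 9, 4 and 8 control peaks. The longest stretch of the arm without a peak in either list ran for 885 kb from 77.2 to 78.1 Mb. A total of 7 such stretches were longer than 500 kb, and together they spanned 4.27 Mb. The knockout list held more peaks than the control list in 18 of 23 bins. The control list held more in 4 bins, among them 78 to 80 Mb with 97 against 89 and 88 to 90 Mb with 776 against 742.

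**Figure D1:**
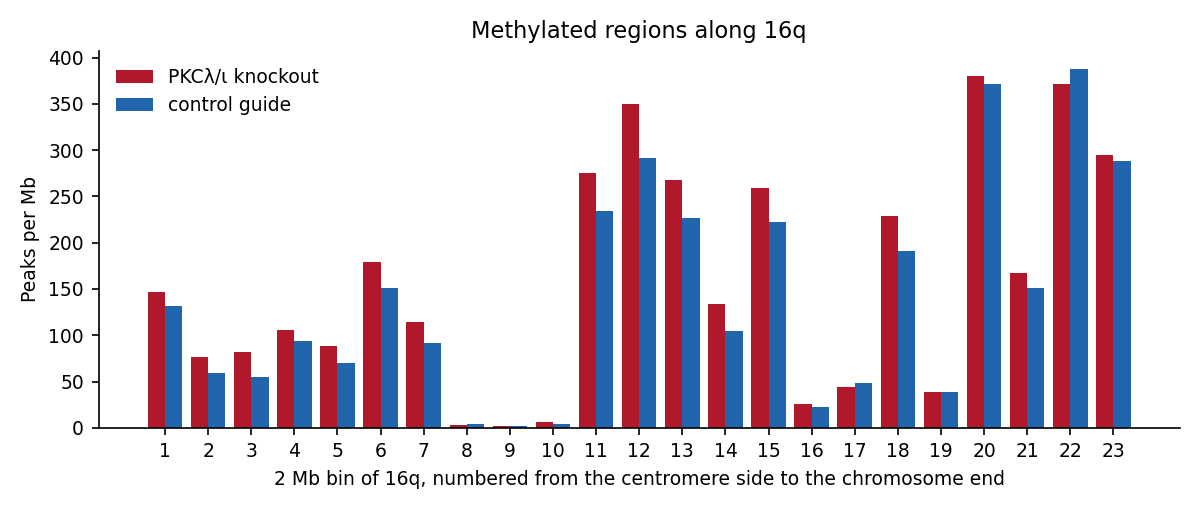
Peaks per Mb in 23 bins of 2 Mb along 16q (x axis, bin 1 nearest the centromere), in knockout cells (red, left bar) and control cells (blue, right bar), 1 library each. The first and last bins are divided by the length they hold of the arm; bins 20 and 22 are the densest full bins and bins 8 to 10 are nearly empty.

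Broad methylated regions lay near the end of the arm. Peaks of at least 2 kb numbered 190 in the knockout and 133 in the control. From 84 Mb onward, a limit chosen after these values were seen, lay 152 of these in the knockout (80.0%) and 110 in the control (82.7%). The same stretch held 28.6% of all knockout peaks of the arm and 32.0% of the control ones. The longest peak of both lists was the same region, from 89345054 to 89353055 in the knockout (8002 bp, pileup 133) and from 89346102 to 89353099 in the control (6998 bp, pileup 74). The highest pileup of the knockout, 220 (192 to 251), stood at 89713383 to 89715038 and was 49.7 times the library mean. Its fold enrichment over the local background, as the authors' list gives it, was only 4.51. In the control the highest pileup, 89 (71.5 to 110), stood at 86006043 to 86007090 and was 30.4 times the library mean. Its listed fold was 15.3.

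Paired regions of 16q had a slightly higher pileup in the knockout. The median log2 ratio was 0.16 (0.15 to 0.17), or 1.12-fold, with quartiles of -0.05 and 0.38 over 4590 pairs. On 16p it was 0.06 (0.05 to 0.07) over 4623 pairs, and over all 206556 pairs 0.04 (0.03 to 0.04). The medians of 16q and 16p differed by 0.10. On 16q 3194 pairs (69.6%) lay above 0, on 16p 2646 (57.2%), and 54.6% over all pairs. The shift was small against the scatter of single pairs, whose SD was 0.33 on both arms and 0.34 over all. Pairs over 1.5 times higher in the knockout numbered 425 on 16q (9.26%), where 5.14% of all pairs lay past that limit. Those over 1.5 times lower numbered 61 (1.33%), against 3.60% of all pairs. On 16p the same counts were 242 and 133. Over 2-fold differences were found in 30 pairs higher (0.654%) and 2 lower (0.0436%) in the knockout on 16q. On 16p these counts were 15 and 5, and over all pairs the shares were 0.445% and 0.140%.

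The shift was seen in every class of pileup level. The arm was chosen on this ratio, so the classes describe the shift and are no further support for it. Pairs were divided at the quartiles of level over the whole series, taken as the geometric mean of both pileups in multiples of the library mean. On 16q the median log2 ratio was 0.07 in the lowest class, 0.16 and 0.19 in the middle ones and 0.20 in the highest. On 16p the medians of these classes were -0.04, 0.01, 0.08 and 0.11, and over all pairs -0.04, 0.03, 0.07 and 0.08. The rise with level was thus shared by 16q, 16p and the whole series, and 16q lay above both in each class.

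The local background, against which the caller judged each peak, moved with the pileup. A background above the lowest one comes in the caller's model from the input, DNA that had not passed the antibody. Over the 2826 pairs of 16q with such a background in both lists, the median log2 ratio of background was 0.26 (0.25 to 0.28). On 16p it was 0.16 (0.14 to 0.16) over 3604 pairs, and 0.13 over all 117172. The background of 16q thus stood 0.11 above that of 16p over the pairs kept, while its pileup stood 0.10 above over all pairs of each arm. Over the pairs kept, with a background above the lowest in both lists, the median pileup ratio was 0.18 on 16q, 0.06 on 16p and 0.05 over all. With the background ratio of the same pair taken off, the median was -0.09 (-0.11 to -0.06) on 16q, -0.10 (-0.12 to -0.08) on 16p and -0.09 over all pairs. The difference between 16q and all pairs was 0.0050 after this step, and 0.13 before it. Where the background was at its lowest in both lists, the pileup ratio of 16q was 0.12 (0.09 to 0.16) over 518 pairs, against 0.03 on 16p and -0.01 over all such pairs. The input libraries were not compared directly here, and the part of the background in the pileup ratio was not tested.

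Set beside the rest of the genome, 16q lay at the end of the range in pileup and in background, and near its middle once the background was taken off (plot of chromosome segments). Each of the other autosomes and X was split in the middle of its longest stretch without peaks. With 16p this gave 44 other segments with at least 200 pairs. On chromosomes whose short arm held no peaks this split is not the centromere. The median log2 ratio of pileup ran from -0.16 on 2p to 0.14 on 3p in these, and 16q with 0.16 ranked 1 of 45. The background ratio ran from 0.01 on 2p to 0.21 on 3p, and 16q with 0.26 ranked 1 again. For the pileup ratio minus the background ratio, the segments ran from -0.15 to 0.01, and 16q with -0.09 ranked 21. The arm was chosen with its ratio known, so the first rank is no finding.

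**Figure D2:**
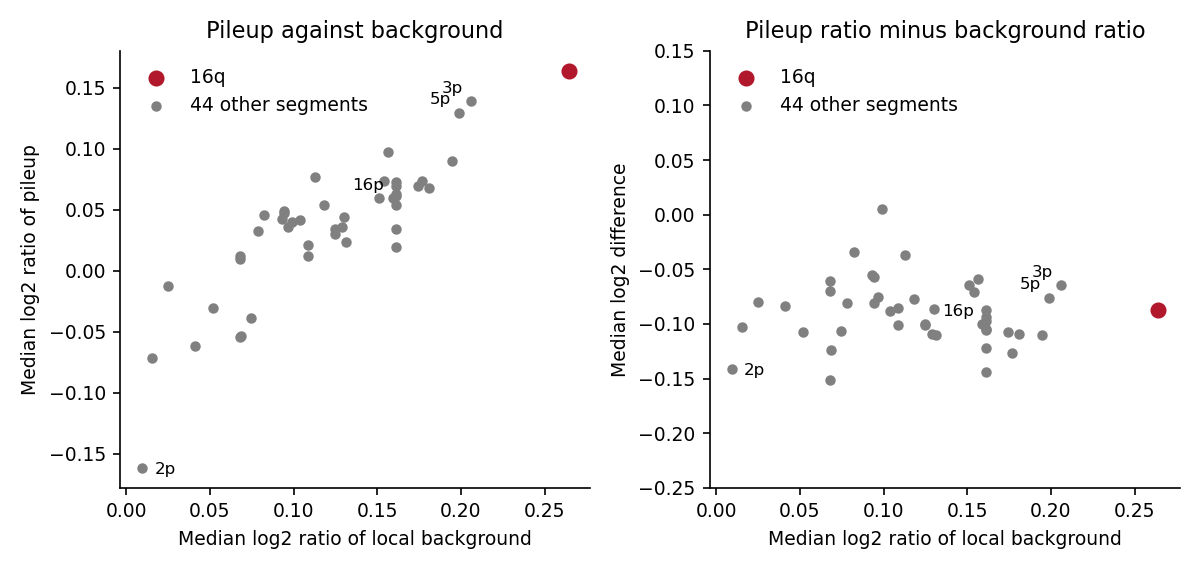
Each point is a chromosome segment, with 16q in red and 44 others in grey. The x axis is the median log2 ratio of local background, knockout over control, and the y axis the median log2 ratio of pileup (left) or the median of pileup ratio minus background ratio (right); 16q is farthest to the upper right at 0.26 and 0.16 on the left and lies at -0.09, among the others, on the right.

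The shift began some way into the arm and was not even along it (plot of ratios by bin). In the bins at 46 to 48 and 48 to 50 Mb the medians for pileup were 0.04 and 0.01 (log2), both below that of 16p. From 50 to 60 Mb the 5 bins had medians of 0.13, 0.12, 0.13, 0.22 and 0.17. The bin at 52 to 54 Mb was mixed. From 52 to 53 Mb the median was -0.35 (-0.67 to -0.07) over only 14 pairs. From 53 to 54 Mb it was 0.15 (0.07 to 0.23) over 130 pairs. The 5 bins from 66 to 76 Mb had medians of 0.23, 0.18, 0.18, 0.14 and 0.15. The highest median was at 66 to 68 Mb, 0.23 (0.19 to 0.27) over 366 pairs, and the lowest at 78 to 80 Mb, -0.03 (-0.22 to 0.09) over 54 pairs. The bins from 84 Mb to the end had 0.16, 0.17, 0.20 and 0.20. Of 20 bins with at least 20 pairs, 18 had a median above that of all pairs, and in 13 the whole interval lay above it. The background ratio was above its median over all pairs in 19 of these bins, and the pileup ratio minus the background ratio in 11.

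Taken in 2 pieces at 50 Mb, a limit chosen after these values were seen, the arm had a median log2 ratio of 0.17 (0.16 to 0.18) over 4318 pairs beyond it. Before it the median was 0.03 (-0.01 to 0.09) over 272 pairs. The background ratio was 0.27 (0.26 to 0.29) beyond 50 Mb and 0.16 (0.07 to 0.24) before it. The pileup ratio minus the background ratio was -0.09 and -0.12. Over the 20 bins, Spearman's rank correlation of the median pileup ratio was 0.78 with the density of control peaks and 0.40 with the background ratio. These bins share both libraries, and sparse bins rest on few pairs, so the coefficients only describe the pattern.

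**Figure D3:**
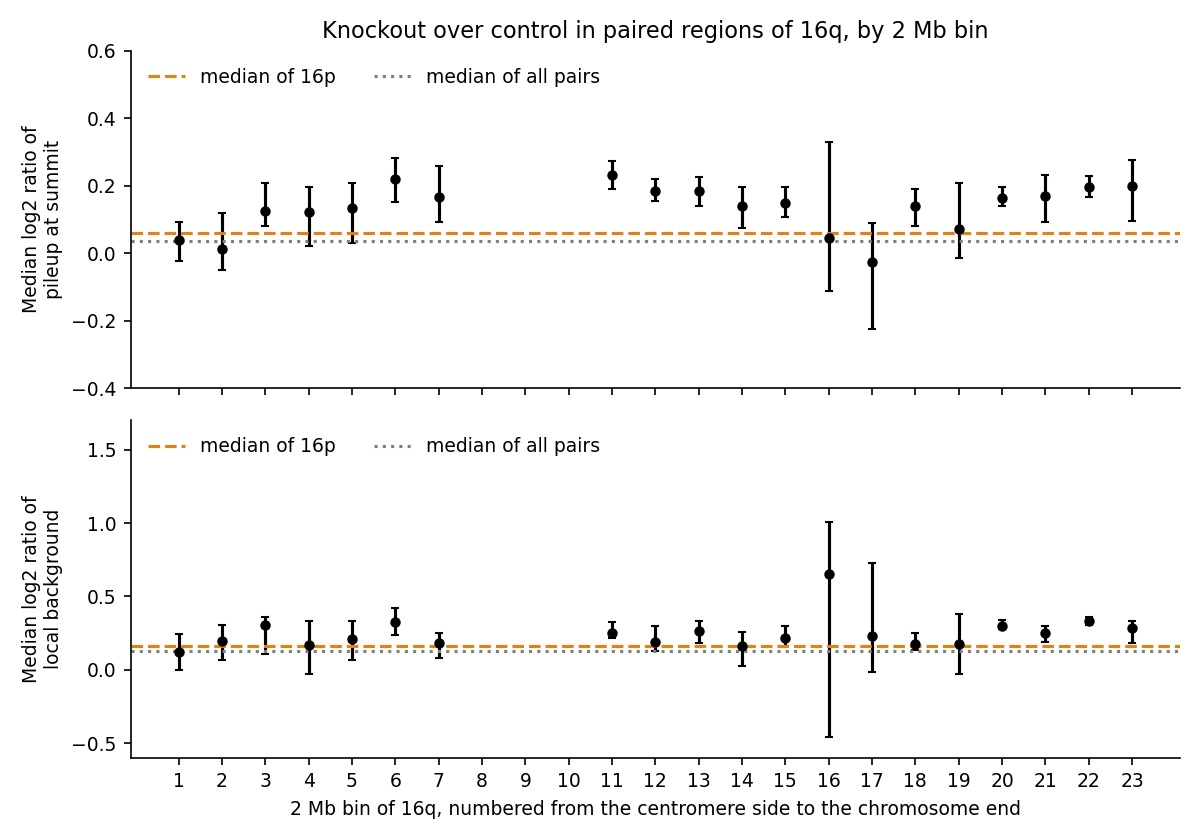
Median log2 ratio of pileup (top) and of local background (bottom), knockout over control, in 2 Mb bins of 16q with at least 20 pairs; bars are 95% order-statistic intervals over pairs, and dashed and dotted lines are the medians of 16p and of all pairs. In pileup, bins 1, 2, 16 and 17 lie below the line of 16p and the other 16 above it; bins 16 and 17 have wide intervals.

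The pairs that differed most between the genotypes were scattered over the arm. Outside the 2 named loci, 2587 pairs were strong in both lists. The highest log2 ratio among them, 1.39 (0.80 to 2.02), was at 84224516 to 84225435, with a pileup of 119 in the knockout and 30 in the control. Next were 46823739 to 46824483 with 109 and 31, a ratio of 1.22, and 68031936 to 68032723 with 102 and 31, a ratio of 1.12. In the first 2 of these the background also differed. It was 4.47 times the library mean in the knockout and 1.65 times in the control at 84224516, and 3.19 and 1.18 times at 46823739. In the last it was level, with 2.13 times and 2.16 times. The other 2 of the 5 highest, at 85433924 and 68676004, had ratios of 1.06 and 1.02.

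The lowest log2 ratio was -0.97 (-1.75 to -0.21), at 58102200 to 58102516, where the pileup was 27 in the knockout and 35 in the control, and the background was at its lowest in both. The next were at 75915511 with 30 and 37, a ratio of -0.90, and at 70168159 with 28 and 34, a ratio of -0.88. At 67933131 the pileup was 40 in the knockout and 48 in the control, a ratio of -0.86. At 53205046 it was 26 and 29, with a ratio of -0.76 (-1.58 to 0.06), an interval that includes 0. None of these 2587 pairs was over 2-fold lower in the knockout, while the 5 of highest ratio were each over 2-fold higher.

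The pairs of highest pileup were ranked by the higher of both genotypes in multiples of the library mean, which was the knockout in all 5 named here. At 89649099 to 89652122 the pileup was 151 in the knockout, 34.1 times the library mean, and 75 in the control, 25.7 times. At 87417673 to 87419021 it was 143 and 49, a log2 ratio of 0.95 (0.47 to 1.45). At 89353521, 58029852 and 77228152 the knockout had 130, 130 and 129 and the control 73, 77 and 58, with ratios of 0.23, 0.16 and 0.56. The intervals at 89353521 and 58029852 included 0, and that at 89649099 began at 0.0030.

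Regions listed in only 1 genotype had lower median pileups than shared ones. On 16q 1528 knockout peaks (22.7%) and 579 control peaks (9.75%) overlapped no peak of the other list. In the whole series these shares were 23.9% of knockout peaks and 12.1% of control peaks. Their median pileup was 28 in the knockout and 18 in the control, against 44 and 25 for shared peaks. Among strong peaks 687 of 5130 were knockout-only, 13.4% (12.5 to 14.4). On 16p the share was 10.5% (9.67 to 11.4), and in the whole list 14.9%, so 16q lay between them. Strong control-only peaks numbered 63 of 3317, 1.90% (1.46 to 2.42), against 2.22% on 16p and 3.24% in the whole list. The immunoprecipitates differed in depth, and the part of depth in these shares was not tested. With peaks of at least 10 times their own library mean, a level set relative to each library's depth, 65 of 2550 knockout peaks were knockout-only, 2.55% (1.97 to 3.24). That share was 2.62% on 16p and 2.83% in the whole list. Control-only peaks at this level numbered 12 of 1885, 0.637% (0.329 to 1.11), against 1.03% on 16p and 1.10% in the whole list. The knockout-only shares of 16q at this level lay within counting error of 16p and of the whole list, and the control-only share lay below that of the whole list but its interval reached it.

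Along the arm the knockout-only share of strong peaks was highest at 78 to 80 Mb, 26.9% (15.6 to 41.0, 14 of 52 peaks), and lowest at 88 to 90 Mb, 4.14% (2.72 to 6.01, 26 of 628). The control-only share was also highest at 78 to 80 Mb, 12.5% of 32 peaks. Peaks at 78 to 80 Mb were weak, with a median of 6.56 times the library mean in the knockout and 6.50 times in the control. Those at 88 to 90 Mb were strong, with 12.7 times and 10.9 times. Over the 20 bins the rank correlation of the knockout-only share with the median level of the control peaks was -0.67. The part of peak level in the share was not tested.

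**Figure D4:**
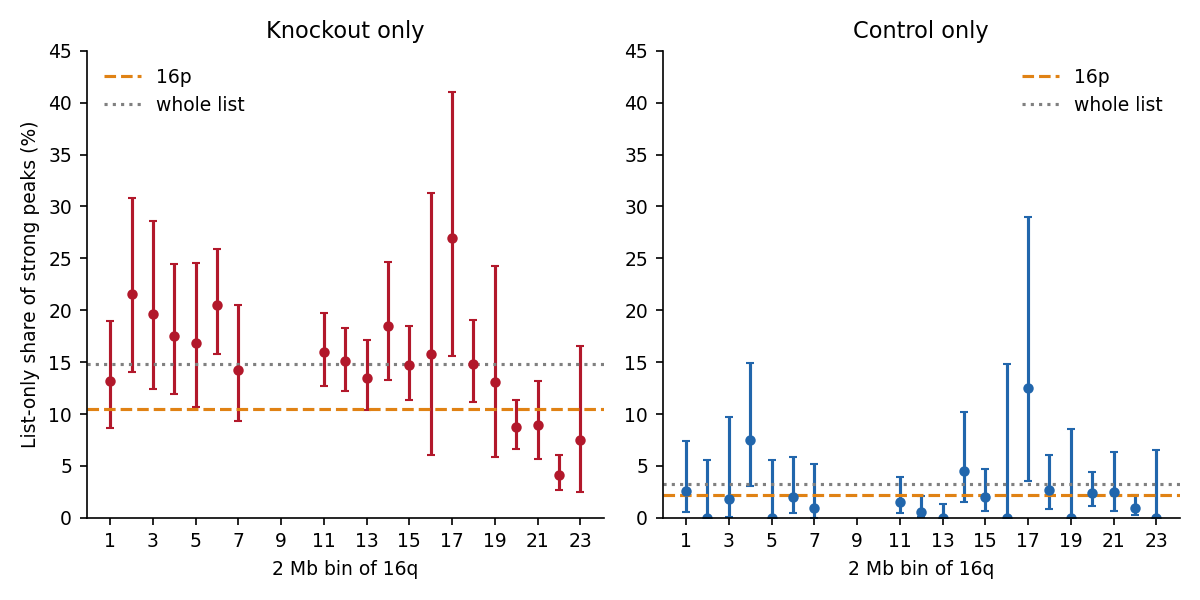
Share of strong peaks (−log10 q of at least 10) found in the knockout only (left, red) and in the control only (right, blue), in 2 Mb bins of 16q with at least 20 pairs; bars are exact 95% binomial intervals, and lines give 16p (dashed) and the whole list (dotted). The knockout-only share is lowest in bin 22 at 4.14% and highest in bin 17 at 26.9%.

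Outside the named loci, 376 strong knockout-only peaks of the arm had no control peak within 1000 bp. The highest listed fold, 9.96, was at 76533871 to 76534292, where 53 fragments (39.7 to 69.3) were stacked. At 66436403 to 66437190 the pileup was 84 (67.0 to 104), 19.0 times the library mean, with a fold of 9.57. The next 3, at 78190463, 67387232 and 71921175, each had a pileup of 47. Control-only regions of this kind numbered 38. The highest fold was 8.16 at 79471955 to 79473280, where the pileup was 31. The others, at 47745069, 64277141, 74914029 and 52507069, had pileups of 28, 27, 26 and 26. In multiples of the library mean the 5 control-only regions ran from 8.90 to 10.6, and the 5 knockout-only ones from 10.6 to 19.0. With the named loci included, regions of this kind made up 7.39% of strong knockout peaks and 1.15% of strong control peaks of 16q. The share at this distance was not computed over the whole series. Without the distance limit, list-only peaks were 13.4% of strong knockout peaks on 16q and 14.9% in the whole list. Among strong control peaks they were 1.90% on 16q and 3.24% in the whole list.

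The metallothionein window, 56.60 to 56.72 Mb, was methylated at many places in both genotypes and held more and higher peaks in the knockout. The knockout list had 20 peaks there covering 13860 bp, and the control list 14 covering 10267 bp. Strong peaks numbered 17 in the knockout and 10 in the control. On all of 16q 76.4% of knockout peaks and 55.9% of control peaks were strong, and over the whole lists 74.5% and 57.0%. The median pileup of the window was 67 in the knockout, 15.1 times the library mean with a range of 4.97 to 22.8. In the control it was 34.5, 11.8 times the library mean with a range of 5.13 to 17.4. Each of the 14 control peaks overlapped 1 knockout peak, and 6 of 20 knockout peaks had no partner, 30.0% (11.9 to 54.3). That interval includes the 22.7% of 16q and the 23.9% of the whole knockout list.

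The 14 pairs of the window leaned one way. Their median log2 ratio was 0.48 (0.25 to 0.83), or 1.39-fold, and 13 of 14 lay above 0. A ratio over 1.5-fold was reached by 6 pairs (42.9%, against 9.26% on 16q and 5.14% of all pairs). In 5 pairs the counting interval lay above 0. How many pairs of 16q or of the whole series had such an interval was not computed. Counting intervals narrow as pileups rise, and the median knockout pileup was 15.1 times the library mean here and 8.82 times on 16q. The largest ratio, 1.28 (0.57 to 2.05), was at 56701832 to 56702433, where the pileup was 77 in the knockout and 21 in the control. At 56650876 to 56651642 the pileup was 95 and 34, a ratio of 0.88 (0.31 to 1.49). At 56665741 to 56666737 it was 97 and 36, a ratio of 0.83 (0.27 to 1.43). At 56681701 it was 64 and 25, and at 56658417 99 and 40, with ratios of 0.76 and 0.71. The tallest peak of the window in both lists was at 56671828 to 56672702, with 101 in the knockout and 51 in the control, and its ratio of 0.39 (-0.11 to 0.90) was within counting error of 0.

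The other pairs of the window had intervals that reached 0. At 56703379 and 56709574 the pileup was 74 and 78 in the knockout against 32 and 35 in the control, with ratios of 0.61 and 0.56. At 56641204 it was 44 in the knockout and 22 in the control, and at 56668598 72 and 37, with ratios of 0.40 and 0.36. At 56696602 it was 80 and 44, at 56661416 70 and 39, and at 56687869 48 and 28, with ratios of 0.26, 0.25 and 0.18. Only at 56653903, the weakest region of the window, was the ratio below 0, at -0.05, with 22 in the knockout and 15 in the control.

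Of the 6 knockout-only peaks, 4 were strong. They made up 23.5% (6.81 to 49.9) of the window's 17 strong knockout peaks, an interval that includes the 13.4% of 16q. At 56622869 to 56623269 the pileup reached 54 (40.6 to 70.5), or 12.2 times the library mean. This peak lay in the first part of the window, where the control list had no peak before 56641263. The other strong ones, at 56637100, 56649546 and 56665101, had pileups of 35, 31 and 34, and the remaining 2, at 56644158 and 56694260, had 29 and 26.

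The background also differed in this window. Over the 13 pairs with a background above the lowest in both lists, the median log2 ratio of background was 0.42 (-0.03 to 0.75). At 56701832, the pair of largest ratio, the background was 3.41 times the library mean in the knockout and 1.14 times in the control. With the background taken off, the median over these pairs was 0.07 (-0.28 to 0.48), and 8 of 13 lay above 0. On this scale the interval of the window included the -0.09 of the arm. The part of the background in the pileup ratio of the window was not tested.

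The window and those directly beside it had raised ratios. The arm was divided, counting from this window, into windows of the same 120 kb, and 157 of 366 held at least 10 pairs. Their median log2 ratios ran from -0.21 to 0.48, with the metallothionein window at the top. The next highest, 0.44 over 17 pairs, directly followed it at 56.72 Mb, and the window just before it had 0.29 over 16 pairs. Farther out, the windows starting at 56.36 and 56.84 Mb had 0.27 over 23 pairs and 0.10 over 30 pairs. The median over the 157 windows was 0.17. The locus was named with earlier results of these data known, so its rank is a description.

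**Figure D5:**
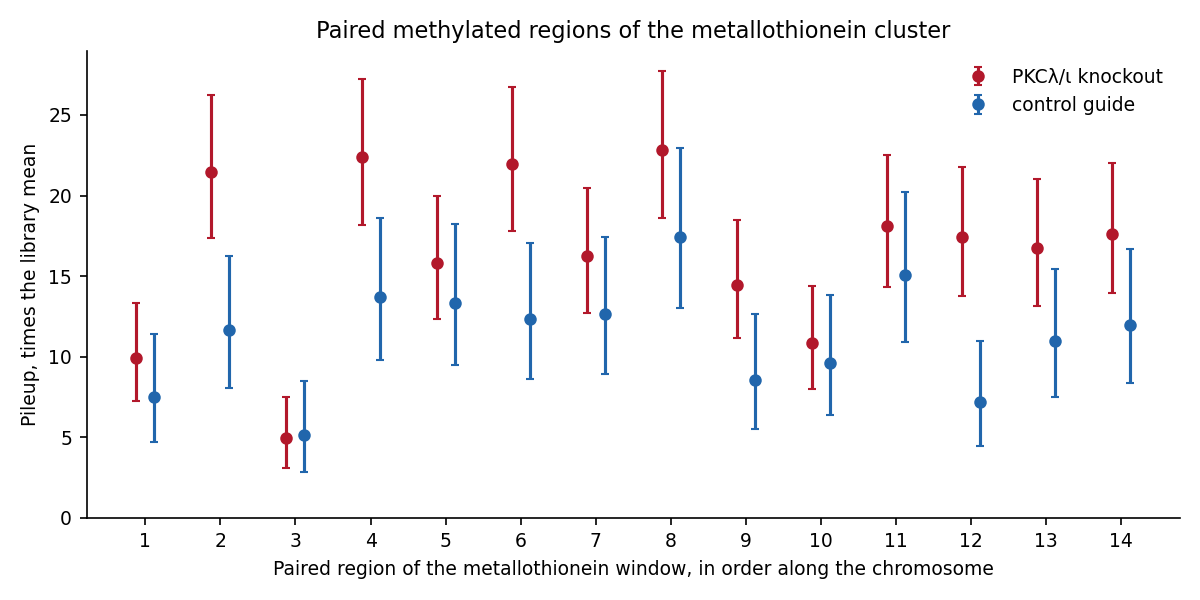
Pileup in multiples of the library mean for the 14 paired regions of the metallothionein window in chromosome order (x axis), in knockout cells (red, left point) and control cells (blue, right point), 1 library each; bars are exact 95% Poisson intervals for counting error. The knockout point is the higher one in 13 of 14 pairs, and the intervals do not overlap in regions 2, 6 and 12.

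CDH13 was almost empty of peaks in both genotypes. In its window of 1170 kb, from 82.66 to 83.83 Mb, the knockout list held 9 peaks and the control list 13, or 7.69 and 11.1 per Mb. No peak of either list lay between 82.402 and 83.004 Mb, a stretch of 602 kb that includes the start of the window. A second empty stretch of 719 kb followed from 83.031 to 83.750 Mb. These were the third and the second longest stretches of the arm without a peak. The 6 knockout peaks and 8 control peaks of the last 30 kb of the window made up most of its peaks. A region without a peak may hold few CpG sites, unmethylated ones or too few fragments, and the lists do not tell these apart.

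The peaks that CDH13 did hold were low in pileup and did not differ in 1 direction. Pileups ran from 22 to 42 in the knockout, 4.97 to 9.49 times the library mean. In the control they ran from 14 to 25, 4.79 to 8.55 times the library mean. Strong peaks numbered 7 of 9 in the knockout and 2 of 13 in the control. On all of 16q 76.4% of knockout peaks and 55.9% of control peaks were strong, and over the whole lists 74.5% and 57.0%. The 7 pairs had a median log2 ratio of 0.02, from -0.46 to 0.49, with 4 above 0 and none past 1.5-fold either way. The highest pair was at 83823934 to 83824417, with 42 in the knockout and 25 in the control, a ratio of 0.15 (-0.60 to 0.93). At 83004011 to 83004313, the only region both lists shared in the first part of the gene, the pileup was 27 in the knockout and 21 in the control. At 83819682 it was 34 and 16, and at 83749941 22 and 20, the pairs with the highest and the lowest ratio. The remaining pairs were at 83760646 with 26 in the knockout and 17 in the control, at 83809638 with 22 and 16, and at 83812619 with 34 and 19. Their ratios were 0.02, -0.14 and 0.24. Of the knockout peaks 1 of 9 overlapped no control peak, and of the control peaks 4 of 13 overlapped no knockout peak, 30.8% (9.09 to 61.4). That interval included the 9.75% of 16q and the 12.1% of the whole control list. For knockout peaks the shares of 16q and of the whole list were 22.7% and 23.9%. The knockout-only peak, at 83825504 to 83825945 with a pileup of 33 (22.7 to 46.3), was strong, and none of the 4 control-only peaks was. With so few fragments, each of the 7 intervals included both 0 and the median of the arm.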

How the data were processed

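BWA, FastQC, MACS2 and hg19 are named in the submitters' processing notes; which versions and settings were used is not given in the sources used here. Both files are laid out as MACS2 peak tables. The authors deposited 1 peak list per immunoprecipitated library. In each, the pileup signal is an unscaled whole number of fragments, the fold enrichment given by the authors is a ratio, pileup over local background with 1 added to both, and significance is deposited as −log10 of p and q. The local background was recomputed as (pileup + 1) / fold − 1, and the Poisson tail with it gave every listed −log10 p to within 0.000573. Total tags are not listed, so pileups were scaled by the lowest background of each list. Peaks overlapping by at least 1 bp were matched. A background over 1.01 times the lowest counted as above it. Medians have order-statistic intervals, shares exact Clopper-Pearson intervals, and pileups and their ratios exact intervals. Since each group held 1 library, genotypes were compared without a test or p-value.

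Named regions followed 1 rule: every peak of the metallothionein window, every pair and strong list-only peak of the CDH13 window, and elsewhere the 5 pairs of highest and of lowest ratio, the 5 of highest pileup and the 5 strong list-only peaks of highest fold per list with no opposite peak within 1000 bp. The members and lists were chosen with earlier results of these data known. The planned counts over cadherin, transcription factor and tumour-suppressor genes were not run, since no hg19 annotation was used here. Calculations used Python 3.11.15, pandas 2.3.3, NumPy 2.4.6 and SciPy 1.17.1, and the routines were tested on simulated data.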

Additional observations from a re-analysis of the deposited data

How the results depend on the processing

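Medians and shares were held to their 95% intervals and counts to 1.5 times. For 12 results 50 alternatives were run: 30 gave values inside these bounds, 19 gave values outside and 1 changed sign. The limit at 50 Mb was chosen after the results were seen. With pairs strong in both lists only, the median log2 pileup ratio of 16q was 0.14, its difference from 16p 0.089, the background ratio 0.30 and the pileup ratio minus the background ratio -0.16. Centred on all pairs of the genome, the pileup ratio was 0.13 and the background ratio 0.13. The pileup ratio minus the background ratio turned to 0.0050, which is the difference between 16q and all pairs given above. The other alternatives for these medians, namely 50% reciprocal overlap, leaving out high backgrounds, the CDH13 window or both ends of the arm, and starting at 50 Mb, stayed within the intervals. The CDH13 median of 0.02 became -0.02 when centred and -0.04 over its pairs strong in both lists. List-only shares moved with the threshold. Requiring 1000 bp to the nearest opposite peak, the knockout-only share of strong peaks was 7.39% and the control-only share 1.15%. With strong peaks set at a −log10 q of 5 they were 21.8% and 8.39%, against 23.1% and 10.7% in the whole lists. At 20 they were 2.74% and 0%, where 0 of 1095 control peaks allows up to 0.274% by the limit of 3 counts (exact interval, up to 0.336%). In the whole lists the shares at 20 were 2.97% and 0.205%. With the knockout list cut by q to the number of control peaks, the control-only share was 3.50%. The knockout-only share had to stay at 13.4%, because all strong knockout peaks outlasted the cut and the control list was not cut. It is counted among the 30 values inside the bounds but is no check. For peaks at 10 times the library mean, requiring 1000 bp gave 1.14% knockout-only and 0.318% control-only. At 8 times the mean the shares were 6.09% and 2.08%, and at 15 times 0.722% and 0%, where 0 of 475 allows up to 0.632% by the same limit (exact, 0.774%). The shares at 1000 bp, with the cut list and at 8 and 15 times the mean were not computed over the whole series. The cause was not tested. Depth limits single regions: CDH13 pileups of 14 to 42 leave wide intervals. No paired analysis was possible because there was 1 library per group.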
